A study of Mus musculus with 6 samples.

Results

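Ribosomal protein pseudogenes are copies of ribosomal protein genes that carry the gene's name and a "-ps" number in the mouse annotation. The 28 described here were chosen by their symbol, by an annotated type that contains the word pseudogene, and by having at least 10 reads summed over 6 tumour RNA-seq libraries. They were 28 of 291 such pseudogenes in the count tables and of 53801 genes in all. Since the read sums themselves selected the members, the presence of reads on them is a description and not a finding.

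The libraries came from small pieces of melanoma grown in male wild-type C57BL/6J mice, 10 to 12 weeks old, after subcutaneous injection of B16-F10 cells, a mouse melanoma line. For SEVO tumours, the cells were primed before injection in a chamber flushed with air containing 2% sevoflurane, a volatile anaesthetic, for 30 min and then kept closed for a further 2 h. For CTRL tumours, the cells went through no priming, and the mice of both groups were not anaesthetised at implantation. Each group had 3 tumours, all libraries were processed together, and the labels name monocytes as the cell type while giving tumour as the source. All 7 melanocyte genes checked had reads in every tumour, and 2 of 6 macrophage and monocyte genes did. Scaled to 1000000 reads of the library sizes of the fit (CPM), the former summed to 592 to 1642 over the tumours and the latter to 148 to 319. The sources used here tie no library to a particular mouse, so p-values measure only the spread between these samples, which may be technical, and fewer cells of a type cannot be told apart from less RNA per cell in tissue of this kind.

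Processed pseudogenes arise when a spliced messenger RNA is reverse transcribed and inserted elsewhere in the genome by the machinery of L1 retrotransposons. The copy therefore lacks the introns of its parent and usually lacks its promoter. Ribosomal protein messages are among the most abundant in growing cells, and mammalian genomes hold many such copies of them. A copy inside an intron of another gene can lie on the strand of that host gene or on the opposite strand.

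Between 723431 and 1348676 reads per tumour were assigned to genes, which was 2.06 to 4.61% of the uniquely aligned reads. The tumour CTRL 1 stood apart. Olfactory and vomeronasal receptor genes, which serve smell and were taken as a measure of background, had 1.30 reads per kilobase of exon there against 0.0756 to 0.589 in the other tumours. The genes Gm10800 and Gm10801 took 49.0% of its counted reads against 1.31 to 35.5% elsewhere. The library kit and the strand setting of the counting are not given in the sources used here, so reads from a pseudogene and from the other strand of the same place cannot be told apart. On the mitochondrial genome, mt-Nd6, which is encoded on the strand opposite to mt-Nd5, had 360 to 804 reads beside 1216 to 2071 for mt-Nd5. These are raw reads that are not scaled by gene length. They do not say which of these genes had the higher level per kilobase, and the strand setting was not tested with them.

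To show what these loci are, the spliced coding sequence of 3 ribosomal protein genes is given beside the same stretch of the pseudogenes named after them. Each stretch runs over 45 bases on either side of an exon junction of the gene, so that it is interrupted by an intron in the gene and unbroken in the copy. Sequences are read 5′ to 3′ on the strand of the gene or pseudogene from the GENCODE transcripts of build GRCm38, and capitals mark the bases of a pseudogene that differ from the gene. For Rps2, a protein of the small subunit, the stretch lies at chr17:24721670-24721847 on the plus strand. Its copies lie at chr17:27785121-27785210 (plus strand) for Rps2-ps9, chr9:108358233-108358322 (minus strand) for Rps2-ps11 and chr11:53646256-53646345 (plus strand) for Rps2-ps4.
Rps2: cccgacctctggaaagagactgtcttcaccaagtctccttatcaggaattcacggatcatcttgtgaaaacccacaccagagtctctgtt
Rps2-ps9: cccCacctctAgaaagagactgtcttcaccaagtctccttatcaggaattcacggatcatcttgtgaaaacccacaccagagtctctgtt
Rps2-ps11: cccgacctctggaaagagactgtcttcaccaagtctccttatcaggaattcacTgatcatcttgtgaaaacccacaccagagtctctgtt
Rps2-ps4: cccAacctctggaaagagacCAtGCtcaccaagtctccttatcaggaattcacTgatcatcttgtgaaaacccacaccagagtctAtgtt

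For Rpl15, a protein of the large subunit, the stretch lies at chr14:18269999-18270323 on the minus strand. The copies lie at chr7:97595225-97595314 (minus strand) for Rpl15-ps5, chr9:72061062-72061151 (plus strand) for Rpl15-ps2 and chr2:38777840-38777929 (plus strand) for Rpl15-ps4.
Rpl15: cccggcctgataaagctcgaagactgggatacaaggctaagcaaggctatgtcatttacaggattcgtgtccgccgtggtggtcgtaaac
Rpl15-ps5: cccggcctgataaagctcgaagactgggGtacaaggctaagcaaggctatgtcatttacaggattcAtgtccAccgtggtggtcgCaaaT
Rpl15-ps2: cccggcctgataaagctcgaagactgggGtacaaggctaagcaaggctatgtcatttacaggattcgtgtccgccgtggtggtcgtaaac
Rpl15-ps4: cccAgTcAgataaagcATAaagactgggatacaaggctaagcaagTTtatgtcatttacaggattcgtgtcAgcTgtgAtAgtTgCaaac

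For Rps12, another protein of the small subunit, the stretch lies at chr10:23785960-23786808 on the minus strand. The copies lie at chr11:75071038-75071127 (minus strand) for Rps12-ps19, chr8:123206709-123206798 (plus strand) for Rps12-ps9 and chr7:30263349-30263438 (plus strand) for Rps12-ps5.
Rps12: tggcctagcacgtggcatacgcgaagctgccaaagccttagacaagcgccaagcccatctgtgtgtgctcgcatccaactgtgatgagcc
Rps12-ps19: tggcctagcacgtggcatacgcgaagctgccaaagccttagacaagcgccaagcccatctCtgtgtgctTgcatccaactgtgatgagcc
Rps12-ps9: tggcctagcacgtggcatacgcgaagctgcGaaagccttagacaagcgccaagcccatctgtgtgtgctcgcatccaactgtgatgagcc
Rps12-ps5: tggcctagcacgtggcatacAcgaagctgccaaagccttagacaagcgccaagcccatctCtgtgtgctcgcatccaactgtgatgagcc

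Within these 90 bases Rps2-ps11 differed from Rps2 at 1 base, Rps2-ps9 at 2 and Rps2-ps4 at 7. The Rpl15 copies were less alike, with 1 difference in Rpl15-ps2, 5 in Rpl15-ps5 and 14 in Rpl15-ps4. Rps12-ps9 held 1 difference, and Rps12-ps19 and Rps12-ps5 held 2 each.

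Over their whole length, 26 of the 28 members matched the gene in their name on the annotated strand. Identity ranged from 88.6% in Rpl15-ps4 to 99.7% in Rpl36-ps2, with a median of 95.3%, and 13 of the 26 were above 95%. Gap bases are left out of these values, and with gaps counted as blastn does, identity ran from 78.9% in Rpl15-ps4 to 99.5% in Rps12-ps9. Each of the 26 alignments ran across 2 to 7 exon junctions of the gene, as a copy of a spliced message does. Rpl29-ps1 was annotated in 2 exons and the other 25 had a single-exon pseudogene transcript. The longest unbroken match to the gene ranged from 33 to 282 bases, the longest being in Rps12-ps9, which differed from Rps12 at 2 of 399 bases. A read that lies within such a match aligns to gene and copy alike and, as a read without a unique place, was not counted for either. Across the 26 members, identity and reads per kilobase had a Spearman correlation of 0.17, given as a description only since near-identical copies lose such reads.

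The remaining pair of members did not match the gene in their name. Rpl17-ps11 had its best protein-coding match in Evc2, a gene of the primary cilium, with a blastn identity of 85.5% over 726 bases and no match to Rpl17. Rps7-ps2 had its best match in Odc1, the gene for ornithine decarboxylase of polyamine synthesis, with a blastn identity of 94.8% over 928 bases and no match to Rps7. Both met the rule by symbol and were kept, and they held 81 and 17 of the 1472 reads on the members. They are not counted where genes and copies are compared.

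The members' reads were few and unevenly spread. Together they held 1472 of the 1777 reads on all 291 ribosomal protein pseudogenes, or 82.8%. Another 135 had 1 to 9 reads and 128 had none. The total per member ran from 10 reads in Rps12-ps5 to 170 in Rps2-ps9, with a median of 36, and the 10 with the most reads held 68.9% of the members' reads. Just inside the limit were Rps12-ps5 with 10 reads and Rpl19-ps3 and Rps15a-ps5 with 12 each, and just outside it Rpl31-ps6 and Rpl28-ps2 with 7 each. Then came Rpl21-ps12, Rpl30-ps2, Rpl31-ps21, Rpl7a-ps14, Rpl9-ps8 and Rps2-ps2 with 6 each. All 6 tumours had at least 1 read on 22 of the 28 members. The members were 15 copies named for the large subunit and 13 for the small subunit, spread over 16 chromosomes.

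**Figure D1:**
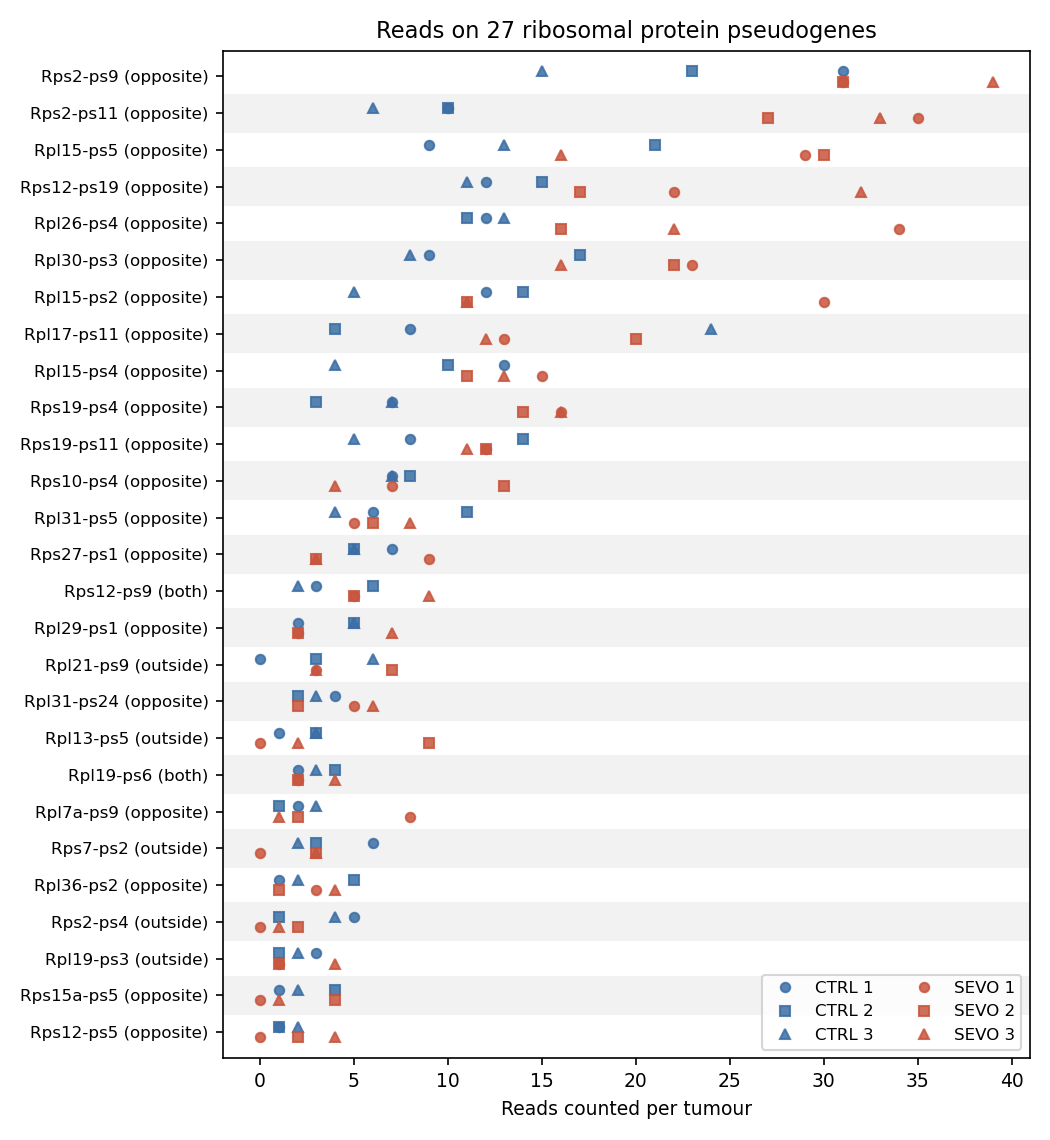
Reads counted on each of 27 of the pseudogenes (rows, ordered by their total, with the place relative to other genes in brackets) in the 3 CTRL tumours (blue) and the 3 SEVO tumours (red), with 1 symbol per replicate number. The groups are furthest apart in Rps2-ps11, with 6 to 10 reads in CTRL and 27 to 35 in SEVO. All rows below the eleventh overlap, and so do several above it, such as Rps2-ps9 and Rpl17-ps11.

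The place and strand of the insertion were compared next. Of the members, 21 lay inside another gene on its opposite strand, 2 lay inside genes on both strands, 5 lay outside other genes and 0 lay only on the strand of a host gene. Of all 291 ribosomal protein pseudogenes, 58 were on the opposite strand of a host, 4 within genes on both strands, 201 outside and 28 on the strand of a host. Hence 36.2% of those on the opposite strand were members, against 2.49% of those outside and 0 of the 28 on the host's strand. No test was run on this, because the read limit that defined the members is the measure compared. With those under 10 reads included, the median level, in reads per kilobase summed over the 6 tumours, was 4.79 on the opposite strand, 1.88 on the host's strand and 0.826 outside. No read fell on 16 of 58, 11 of 28 and 100 of 201 of them, respectively.

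Processed pseudogenes that are no copies of ribosomal protein genes, 9128 in all, showed the same order of these shares. At least 10 reads were found on 40.5% of the 1638 on the opposite strand of a host, on 3.92% of the 6360 outside and on 2.83% of the 991 on the host's strand. The pattern of place and strand was therefore seen in both kinds of pseudogene, and the difference between the kinds was not tested. In both it rests on a counting whose strand setting is not given. Reads from a pseudogene and from the host's strand at the same place cannot be told apart, so the pattern does not show that the pseudogenes were transcribed. Below 10 reads, ribosomal protein pseudogenes had 2.29 reads per kilobase in total beside 2.75 for the receptor genes.

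**Figure D2:**
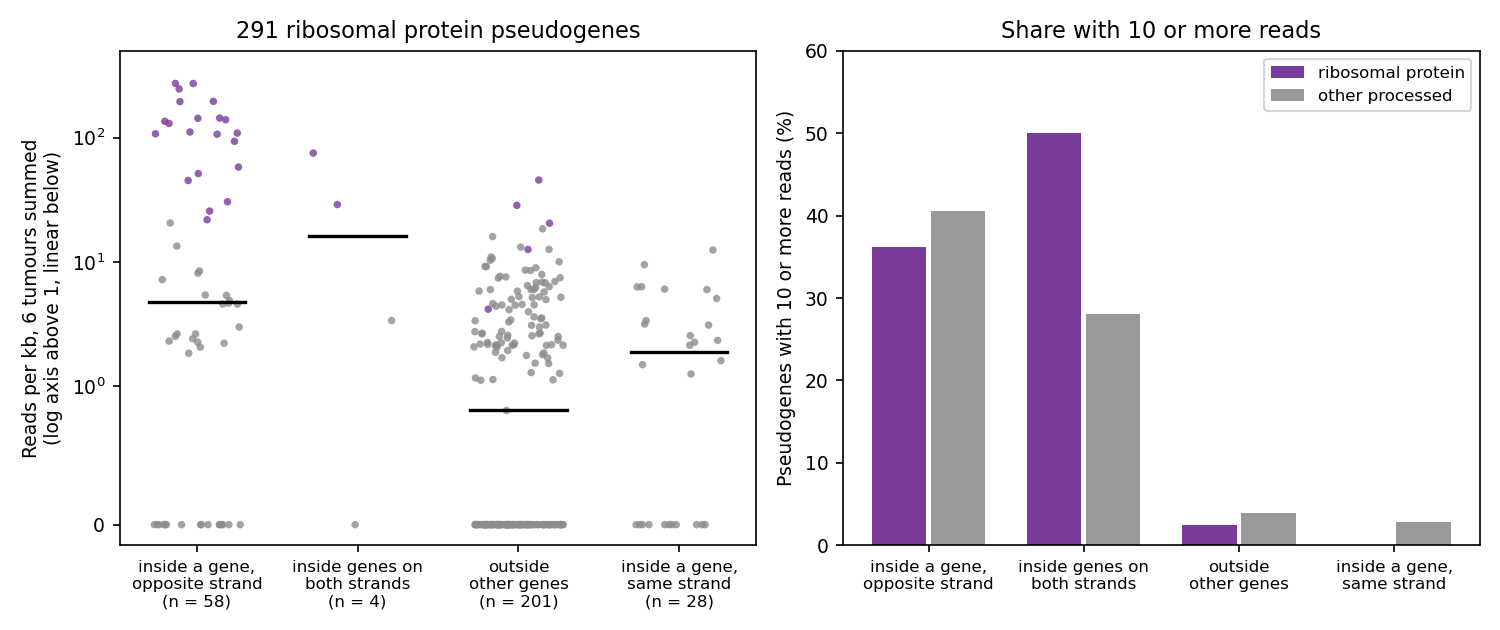
Left: reads per kilobase summed over 6 tumours (log axis above 1, linear below) for the 291 ribosomal protein pseudogenes by place and strand, with the 28 members in purple and a bar at each median. Right: the percentage with at least 10 reads for ribosomal protein pseudogenes (purple) and other processed pseudogenes (grey), which was 36.2 and 40.5% on the opposite strand of a host.

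All 23 members inside genes lay in an intron, shared no exon base with the opposite-strand host and had a protein-coding host on that strand. The intron was 1141 to 90427 bases long, and the nearest host exon was 111 to 44590 bases away, with a median of 2917. Rps12-ps9 lay opposite to Chmp1a, an ESCRT protein gene, and also within the readthrough gene Gm20388 on its own strand. Rpl19-ps6 lay opposite to Wdr70 and shared 80 bases with the microRNA gene Gm27529 on its own strand.

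Per kilobase of exon, each of the 23 members had more reads than its host, which is a description only, since members were chosen for reads on short loci and hosts were not. The levels of members and hosts given here also rest on a counting whose strand setting is not given. Over all 58 opposite-strand copies the median was 4.79. The ratio was smallest for Rpl36-ps2 in Abr, at 1.41, and largest for Rpl26-ps4 in Med15, a Mediator subunit gene, at 110. Rsf1, a chromatin remodelling gene and the host of Rpl15-ps5, had 27.2 reads per kilobase beside 195 on the pseudogene. In Usp4, a deubiquitinase gene, the host level was 12.4 beside 139 on Rps2-ps11. Hosts of members had a median of 9.99 reads per kilobase, and hosts of opposite-strand ribosomal protein pseudogenes under 10 reads a median of 5.77, with ranges of 2.23 to 36.4 and 0 to 34.0 that overlapped widely.

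The 5 members outside other genes were among the sparsest. Rpl21-ps9 had 45.6 reads per kilobase, Rpl13-ps5 28.6, Rps2-ps4 20.5, Rps7-ps2 12.6 and Rpl19-ps3, whose annotated exons extend well past the copy, 4.18. The highest levels belonged to opposite-strand insertions, with 273 for Rpl30-ps3 in Fnbp4, 272 for Rps12-ps19 in Smg6, an endonuclease gene of nonsense-mediated decay, and 247 for Rpl26-ps4.

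The copies were then set beside the genes they were copied from. The copies were chosen for their reads and the genes were not, so what follows is a description only, of levels that rest on a counting whose strand setting is not given. The 26 members matched 17 ribosomal protein genes, and 13 of the 17 genes had fewer reads than their copies. The genes held 645 reads and the copies 1374. Per kilobase of exon, 16 of the 17 genes were below their copies, the exception being Rpl7a with 29.2 beside 21.9 on Rpl7a-ps9. That count rests on the length used for the genes, which was the union of all annotated exons. For Rps15a the union was 6270 bases beside 640 in the spliced transcript that was aligned, and for Rps2 1830 beside 998. With such shorter lengths the levels of these genes would be higher. Rpl15 had 2, 2 and 1 reads in CTRL and 0, 2 and 1 in SEVO, whereas its 3 copies together had 34, 45 and 22 in CTRL and 74, 52 and 40 in SEVO. In each tumour more reads were counted on these copies than on the gene. Rps12 had 9 reads in all, beside 149 on its copies. Rps2 had 131 beside 304, and Rpl26 had 94 beside 108 on Rpl26-ps4. Rps15a and Rpl7a had 68 and 52 reads, more than the 12 and 17 on their copies. The 84 cytosolic ribosomal protein genes together had 4930 reads, or 28.2 per kilobase, beside 83.5 per kilobase on the members. Copies below the limit of the rule are not in these sums, and 17 of 23 counted Rps12 copies had no read.

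**Figure D3:**
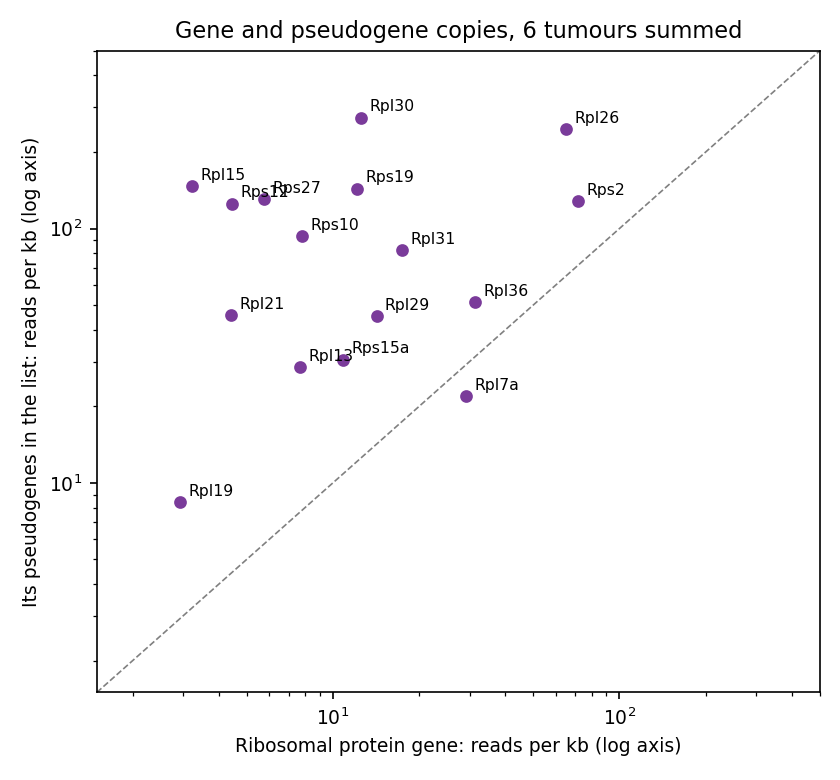
Reads per kilobase of exon, summed over 6 tumours, for 16 of the ribosomal protein genes (horizontal log axis) and for their pseudogenes with at least 10 reads (vertical log axis), with a dashed line of equality. Points above the line are genes below their copies. With the union of all annotated exons as gene length, Rpl7a alone lies under the line, at 29.2 beside 21.9.

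Whether priming with sevoflurane changed the pseudogenes was asked in a fit across all genes with enough reads. Of the 28 members, 11 entered it, among 7561 genes. These 11 were also the members with the most reads, and all of them reached the filter in all 3 SEVO tumours but only 1, Rps2-ps9, did so in all 3 CTRL tumours, so that a difference in this direction is partly built into their selection. No member passed an adjusted p of 0.05 with edgeR's quasi-likelihood test, and 0% of all genes tested did. At an unadjusted p under 0.05, 1 member was higher in SEVO (0.529% of all genes) and 0 were lower (3.84% of all genes). DESeq2 gave 2 members an unadjusted p under 0.05, as it did 265 of 42422 genes, and no member an adjusted one. With the thresholds that the study used, a fold of 1.5 or more together with a p below 0.02 before adjustment, 1 member was higher in SEVO, where 0.106% of all genes were, and 0 were lower, where 0.939% were.

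That member was Rps2-ps11, in an intron of Usp4. Both Rps2-ps11 and Rps19-ps4, described below, are in the study's own published list of differentially expressed genes, which was made with DESeq2. In the fits made here, Rps19-ps4 had an unadjusted p of 0.053 with edgeR and 0.025 with DESeq2. Neither was below the study's limit of 0.02, so its place in that list was not reproduced. Rps2-ps11 had 10, 10 and 6 reads in CTRL and 35, 27 and 33 in SEVO. In CPM this was 12.1, 12.5 and 6.89 in CTRL and 40.2, 29.0 and 36.0 in SEVO. Every SEVO tumour was above every CTRL tumour. The means were 10.5±3.16 CPM (SD, n = 3) and 35.1±5.70 CPM (SD, n = 3). The log2 fold change in edgeR was 1.73 (SE 0.47) with an unadjusted p of 0.0027, the second lowest rank among 7561 genes, and an adjusted p of 0.741. An exact two-sided permutation test of the CPM values gave p = 0.1, the smallest value that 3 against 3 allows. Over the other settings tried, the log2 fold change was 1.55 to 2.24 and the adjusted p 0.0634 to 1.00, the lowest being without CTRL 2. Usp4 itself was lower in the SEVO group by mean, with a log2 fold change of -0.81 (SE 0.64) and an adjusted edgeR p of 0.748, and its groups overlapped. The lower mean rested on CTRL 1, since Usp4 had 52.2, 8.78 and 18.4 CPM in CTRL and 12.6, 9.65 and 22.9 in SEVO.

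Rps19-ps4, a copy of the small-subunit gene that is mutated in Diamond-Blackfan anaemia, lay opposite to Lars, the gene of the cytosolic leucyl-tRNA synthetase. It had 7, 3 and 7 reads in CTRL and 16, 14 and 16 in SEVO. The groups did not overlap in reads or in CPM, with means of 6.76±2.61 and 16.96±1.74 CPM (SD). The log2 fold change was 1.30 (SE 0.61), with an adjusted edgeR p of 0.741. Rps19-ps4 reached the filter of the fit in 0 CTRL and 3 SEVO tumours, so it entered the fit through the SEVO group and its fitted direction is partly set by that. The parent Rps19 had 13, 8 and 12 reads in CTRL and 4, 7 and 13 in SEVO, with overlapping groups.

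Rpl26-ps4, in Med15, had 12, 11 and 13 reads in CTRL and 34, 16 and 22 in SEVO. The CTRL tumours were close together at 14.4±0.573 CPM and the SEVO tumours spread widely at 26.8±11.2 CPM (SD), without overlap. Its log2 fold change was 0.88 (SE 0.49) with an adjusted edgeR p of 0.741. The parent Rpl26 had a log2 fold change of -0.015 (SE 0.57) with an adjusted edgeR p of 0.993.

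In the other tested members the groups overlapped in CPM. Rps2-ps9, a transcribed pseudogene opposite to D17Wsu92e and the member with the most reads, had 31, 23 and 15 in CTRL and 31, 31 and 39 in SEVO. Its log2 fold change of 0.41 (SE 0.40) was about a single SE. Rps12-ps19, in Smg6, had 12, 15 and 11 in CTRL and 22, 17 and 32 in SEVO, which did not overlap as reads but did as CPM, and its log2 fold change was 0.77 (SE 0.48). Rps19-ps11, in Pdss2, had 8, 14 and 5 in CTRL and 12, 12 and 11 in SEVO, all within the CTRL range. In the latter the log2 fold change was 0.23 (SE 0.62).

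Among the large-subunit copies, Rpl15-ps5 in Rsf1 had 9, 21 and 13 reads in CTRL and 29, 30 and 16 in SEVO, with a log2 fold change of 0.67 (SE 0.50). Rpl30-ps3, in Fnbp4, had 9, 17 and 8 in CTRL and 23, 22 and 16 in SEVO, with a log2 fold change of 0.70 (SE 0.53). In each of these the lowest SEVO tumour, SEVO 3, lay below the highest CTRL tumour, CTRL 2. Rpl15-ps2, in Tcf12, a transcription factor gene, had 12, 14 and 5 in CTRL and 30, 11 and 11 in SEVO. Its higher SEVO mean rested on SEVO 1, and without that tumour the log2 fold change went from 0.62 (SE 0.64) to -0.017. Rpl15-ps4, in the orphan nuclear receptor gene Nr6a1, had 13, 10 and 4 in CTRL and 15, 11 and 13 in SEVO, with a log2 fold change of 0.39 (SE 0.62). Rpl17-ps11, the copy of Evc2 that carries a ribosomal protein symbol, had 8, 4 and 24 in CTRL and 13, 20 and 12 in SEVO, and CTRL 3 was its highest tumour. In Rpl17-ps11 the log2 fold change was 0.22 (SE 0.65). Adjusted edgeR p values of these 8 members ran from 0.741 to 0.899.

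**Figure D4:**
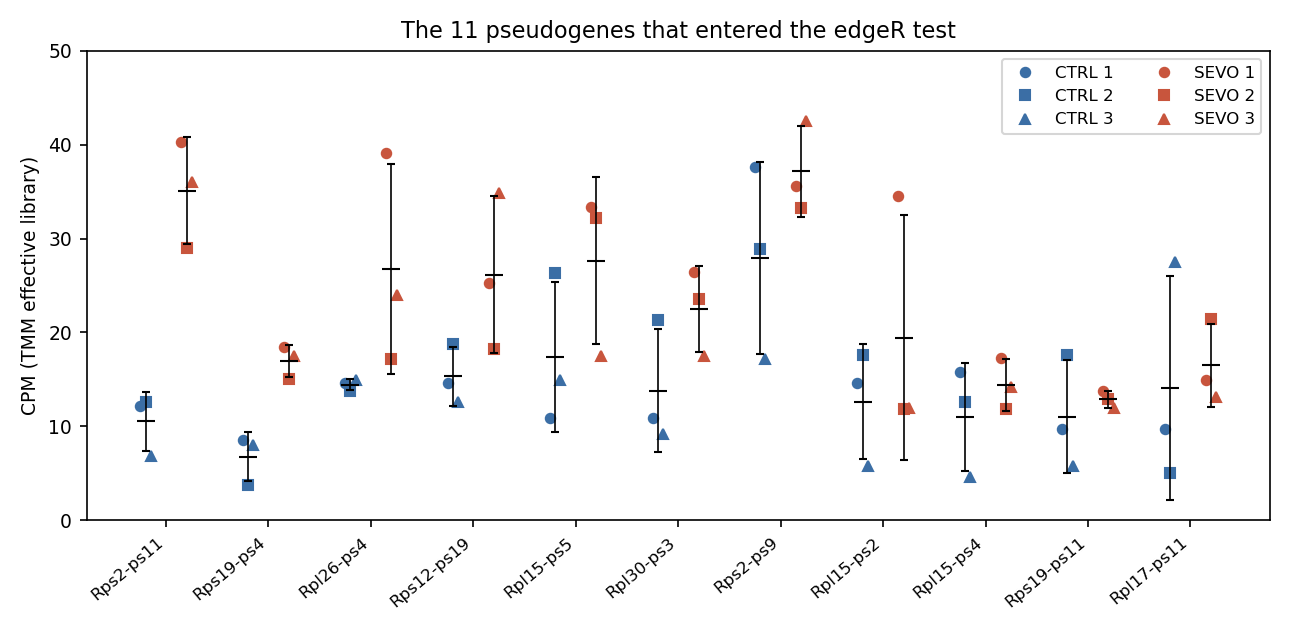
CPM (with the library sizes of the fit) in each CTRL tumour (blue) and SEVO tumour (red) for the 11 tested pseudogenes, in the order of their p, with black bars for mean ± SD of 3 tumours. The groups are separate in the first 3, Rps2-ps11, Rps19-ps4 and Rpl26-ps4, and overlap in the others.

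All 28 members could be compared by their values in each tumour, with no filter other than the read limit of the rule. In CPM, 3 of the 28 were higher in every SEVO tumour than in any CTRL tumour, where 1.81% of the 23117 genes with at least 10 reads were, and 0 were lower in every SEVO tumour, where 6.27% were. Among the 7561 genes of the fit the same shares were 4.17 and 4.39%. Scaled instead by uniquely aligned reads, 2 of 28, Rps2-ps11 and Rps19-ps4, were separate and higher, beside 1.18% of genes. The mean CPM was higher in SEVO for 18 of 28 members and for 24.3% of genes, and by uniquely aligned reads it was higher for 17 of 28 and 18.7%. These backgrounds moved with CTRL 1. Without that tumour 41.3% of genes had a higher mean CPM in SEVO, and 18 of 28 members did. The share of genes that were separate and higher in SEVO was then 4.43%, beside 4 of 28 members. Separate and lower were 1652 of the 23117 genes and 0 members. Processed pseudogenes of other genes went the same way in the fit, with a log2 fold change above 0 in 269 of 318 on the opposite strand of a host (84.6%), 15 of 15 within genes on both strands and 19 of 22 outside (86.4%), after the same filter. Of the 68 cytosolic ribosomal protein genes with at least 10 reads, 17 had a higher mean in SEVO with all tumours and 31 without CTRL 1.

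The 17 members that did not enter the fit are those left by a filter that members passed mainly through the SEVO tumours, so their direction is partly set by it. SEVO had more reads in 8 of them, fewer in 7 and the same number in 2. Rps2-ps4, outside other genes, had 5, 1 and 4 reads in CTRL and 0, 2 and 1 in SEVO. Rps12-ps9 had 3, 6 and 2 in CTRL and 5, 5 and 9 in SEVO, and in Rpl21-ps9 there were 0, 3 and 6 in CTRL and 3, 7 and 3 in SEVO. None of the 17 had groups apart in CPM.

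Summed over the 28 members, CTRL had 187, 206 and 175 reads and SEVO had 323, 283 and 298. Every SEVO tumour was above every CTRL tumour. Over all 291 ribosomal protein pseudogenes, CTRL had 314, 225 and 235 and SEVO 345, 305 and 353, a ratio of 1.30 with overlapping groups. For the 28, the size of that difference depended on the denominator. As CPM of all counted reads the means were 197±77.4 and 342±29.2 (CTRL vs. SEVO, SD, n = 3), a ratio of 1.74. With Gm10800 and Gm10801 left out of the denominator the ratio was 1.42, with the library sizes of the fit 1.46, and as CPM of uniquely aligned reads 1.30, at 6.14±0.273 vs. 8.0±0.874. The groups stayed separate under each of these 4 denominators. No test was run on the sum, because the members were chosen with results of these data known.

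The sum was also taken without some of the members. Without Rps2-ps11 and Rps19-ps4, the ratio with the library sizes of the fit was 1.33, at 211±28.4 vs. 281±27.9 CPM, with the groups still separate. Without Rpl17-ps11 and Rps7-ps2, which are no ribosomal protein copies by sequence, it was 1.497. Without the members that entered the fit, the 17 left had a ratio of 1.05, at 73.9±6.16 vs. 77.9±5.79 CPM (SD), with overlapping groups. The filter that set these 17 apart was passed by members mainly through the SEVO tumours. By place, the 23 members in host introns had a ratio of 1.51 and separate groups, and the 5 outside other genes a ratio of 0.823 and overlapping groups. The latter rests on 15, 11 and 17 reads in CTRL and 4, 22 and 13 in SEVO, and includes Rps7-ps2. These 5 are also among the 17 that did not enter the fit, and every member that entered it lay in a host intron. A difference by place was not tested.

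**Figure D5:**
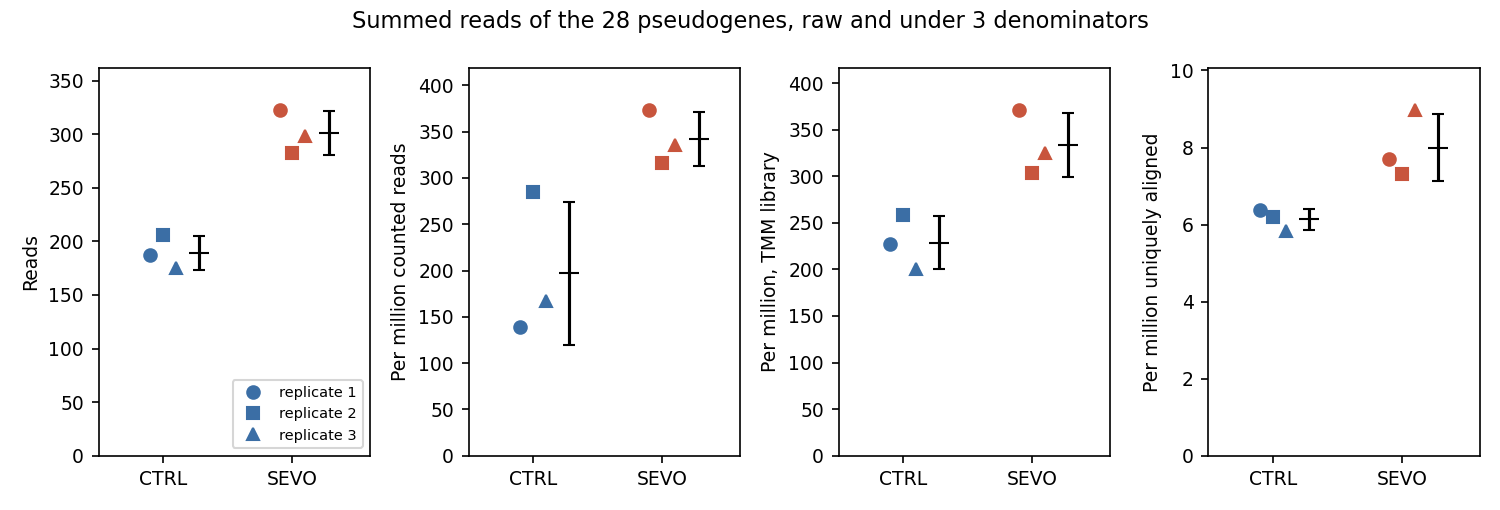
Summed reads of the 28 pseudogenes in each tumour, as raw reads and as CPM of counted reads, of the library sizes of the fit and of uniquely aligned reads, with black bars for mean ± SD of 3 tumours per group. The SEVO tumours lie above the CTRL tumours in all 4 panels, with ratios of 1.74, 1.46 and 1.30 in the last 3.

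The levels of other groups of genes are given beside these sums, and their part in the differences was not tested. Ribosomal protein pseudogenes under 10 reads had 68.7±54.5 reads in CTRL and 33±19.1 in SEVO, with overlap. Other processed pseudogenes with at least 10 reads on the opposite strand of a host summed to 12098±2604 CPM in CTRL and 15231±2115 in SEVO, a ratio of 1.26 with overlapping groups. Cytosolic ribosomal protein genes summed to 1046±60.5 and 851±407 CPM, also with overlap. Of the 22 such genes in the fit, 5 had a log2 fold change above 0 and 17 below, with a median of -0.25 beside -0.018 over all genes tested, and the lowest adjusted edgeR p was 0.741, for Rps3. The 7 melanocyte genes summed to 1206 to 1279 CPM in CTRL and 592 to 1642 in SEVO, and 6 macrophage and monocyte genes to 148 to 273 and 218 to 319, both with overlap.

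Hosts of the members gave lower mean CPM in SEVO in 23 of 23 cases, with a median ratio of 0.549, while 16 of their 23 pseudogenes had a higher mean. The host direction rested on CTRL 1. Without it, 11 of 23 hosts were higher in SEVO and the median ratio was 0.963. The median ratio over the 23117 genes with at least 10 reads moved alike, from 0.58 to 0.904. Of the 9 hosts in the fit, Tcf12 had the lowest p, with a log2 fold change of -0.83 (SE 0.46) and an adjusted edgeR p of 0.741.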

How the data were processed

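RNA from tumour pieces was sequenced on an Illumina HiSeq. As the study's methods state, the authors removed ribosomal RNA reads with SortMeRNA, trimmed with Trimmomatic, aligned with STAR and counted with HTSeq on GENCODE release M17 (GRCm38). Versions in the submitters' processing notes were Trimmomatic 0.36, STAR 2.6.0c and HTSeq 0.9.1. The authors deposited HTSeq's raw counts, with no normalization.

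Groups were taken from the labels. Names, strands, hosts and sequences came from GENCODE M21 on the same build, which matched 53706 of 53801 identifiers. Copies were aligned to spliced transcripts of the gene in their name with Biopython 1.88 (local, match 2, mismatch -3, gap open -5, extension -2) and searched against all protein-coding transcripts with blastn 2.17.0 (E-value limit 1e-05). Reads per kilobase used the union of exons. Counts were tested with edgeR 4.0.16 (filterByExpr, TMM, quasi-likelihood, Benjamini-Hochberg over 7561 genes) and with DESeq2 1.42.0 as an alternative. Each SE of an edgeR log2 fold change was derived from the test, as its absolute value divided by the square root of the F statistic. CPM were counts scaled to 1000000 reads of the TMM effective library. The edgeR steps were tested on simulated data.

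The members and lists were chosen with earlier results of these data known. Genes were named by a rule covering the 10 members with the most reads, and Rps2-ps11 and Rps19-ps4, which are in the study's published list. The rule also covered members with an unadjusted p under 0.05 or separate groups, the 3 highest members per place, and those nearest the limit of 10 reads. Rps7-ps2, Rpl36-ps2, Rpl29-ps1, Rpl7a-ps9 and Rps3 were named after their values were seen. Single values of 1 member and its gene are not reported here, though counts and sums over the members include it. The background for separate groups and for direction was first computed over the 7561 tested genes and, after those values were seen, over the 23117 genes with at least 10 reads, so that it covers all 28 members. Both are printed for separate groups. Over the tested genes, 48.9% had a log2 fold change above 0. Library size by uniquely aligned reads was tried after seeing the data, as were the comparisons without CTRL 1, the sums without single members and the sequence search. Intervals of counting error were not used, since the spread between tumours is the error of each comparison.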

Additional observations from a re-analysis of the deposited data

How the results depend on the processing

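In 14 alternatives to the fit, 0 pseudogenes passed an adjusted p of 0.05. The count past the study's thresholds stayed at 1 in 12 of them, including each fit without 1 tumour (range 1 to 1), was 3 with no filter on low counts (266 of 42423 genes) and 0 with at least 10 reads required in every tumour (68 of 4480 genes), where 3 members were tested. Over all genes that count was 79 and swung from 13 without SEVO 1 to 1449 without CTRL 2, so a steady 1 does not mean the same in each. Without CTRL 2, 31 genes passed an adjusted p of 0.05, none of them a member. The log2 ratio of summed reads as CPM of counted reads, 0.80, fell to 0.38 with uniquely aligned reads as denominator and ranged from 0.60 to 1.16 without 1 tumour. Log2 fold changes turned in Rps19-ps11 (-0.037 without CTRL 3, otherwise up to 0.88 without 1 tumour), Rpl17-ps11 (-0.052 without CTRL 2 and -0.0019 with uniquely aligned reads as library size, otherwise up to 1.22) and Rpl15-ps2 (-0.017 without SEVO 1, otherwise up to 1.10). The cause was not tested. The median level per tumour, in reads per kilobase, was 18.5 for members on the opposite strand of a host. It was 0.798 with those under 10 reads included, 11.5 in CTRL 3 alone and 27.7 in SEVO 1 alone. Outside other genes it was 3.42, and 0.138, 1.59 in CTRL 1 alone and 0 in SEVO 1 alone. The median log2 fold change over all genes tested, -0.018, moved to 0.22 with library size only, -0.23 with uniquely aligned reads, -0.38 with no filter and -0.55 with DESeq2, so changes near 0 depend on the scaling.

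Tumours with the same number deviated from their group means with correlations of -0.39, 0.32 and 0.11. Tumours with different numbers were not compared in this way, so these values cannot decide whether the numbers pair them. With the replicate number as a block, 0 pseudogenes and 1 gene of 7561 passed an adjusted p of 0.05, 1 pseudogene and 129 genes passed the study's thresholds, and the log2 fold change of Rps2-ps11 was 1.74. Few reads limit all of this, since 17 of 28 members did not reach the filter of the edgeR fit, and only the fit without a filter and DESeq2 covered all 28.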

Other observations

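The annotation holds 6 further genes with the symbol of a ribosomal protein pseudogene and the type protein-coding, which the rule left out. Rps12-ps3 had 6 reads over the 6 tumours, Rpl9-ps1 3, Rpl36-ps4 and Rpl36a-ps1 2 each, and Rpl10-ps3 and Rpl9-ps6 were at 0. None reached the limit of 10 reads.

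The genes that Rpl17-ps11 and Rps7-ps2 match by sequence had few reads themselves. Evc2 had 17, 4 and 15 in CTRL and 1, 4 and 10 in SEVO, and Odc1 had 11, 5 and 6 in CTRL and 4, 2 and 8 in SEVO. In both the groups overlapped.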
